A study of Mus musculus with 12 samples.

Results

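The 39 genes described here make, modify and carry heparan sulfate. They comprise the enzymes of the chain and of its precursors, the 2 extracellular sulfatases, and the core proteins of the glypican, syndecan and perlecan types. They were taken by gene symbol, as 39 of the 38911 genes in the count files, and for each gene the counts of its RefSeq transcripts were added up. Gastruloids are aggregates of mouse embryonic stem (ES) cells that break symmetry and form germ layers in culture. PolyA RNA was sequenced from whole day 4 gastruloids in 12 libraries, 3 for each of 4 treatments given from day 3 to day 4. All were made from the E14TG2a line kept in 2iLIF and, per the methods of the study, all had received a Wnt agonist in N2B27 medium on day 2 and were pooled per library from 1 plate. The medium held no glucose (0X), 21.25 mM glucose (1X, the control), 63.75 mM glucose (3X), or 21.25 mM glucose with 5 mM 2-deoxy-D-glucose (2-DG), a glucose analog that blocks glycolysis and also enters mannose metabolism. The 3 libraries of a treatment came from ES cells of passage 13, 15 and 16, so each passage gave 1 library of each treatment, and values below are listed in that order. The line is a single ES cell line, and the replicates are passages of it.

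Heparan sulfate is a sulfated sugar chain built on a serine of a core protein in the Golgi. A linker is laid down first, the chain is then polymerised from glucuronic acid and N-acetylglucosamine, and N-sulfation, epimerisation and O-sulfation follow along it. The finished chains bind Wnt, FGF, BMP and Hedgehog ligands at the cell surface and in the matrix, and mouse embryos that lack Ext1 or Ext2 fail to gastrulate.

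Libraries held 31902471 to 45956080 counts, of which 0.271% to 0.311% fell on the 39 genes. Of the 39, 37 passed the filter on low counts. Ndst4, an N-deacetylase-N-sulfotransferase, had 0 counts in every library, which allows at most 0.0653 to 0.094 counts per 1000000 counts of the library (CPM), for counting error only. Its relative Ndst3 had 0 to 12 counts and was not tested either. The paragraphs below give levels in CPM scaled by the TMM method, which compare a gene between libraries. RNA of whole aggregates was measured, so fewer cells of a type and less RNA per cell cannot be told apart.

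Levels of different genes are comparable only per length, and 27 members had at least 50% of their counts in transcripts of known length. In 1X glucose the highest level per length was that of Gpc3, a glypican that regulates Hedgehog and Wnt signals, at 279 ± 37.5 CPM per kilobase (SD, n = 3). Sulf2, an extracellular sulfatase, followed at 97.3 ± 6.9 CPM per kilobase, and their ranges did not overlap. Sdc1 had 47.2 ± 1.99 and Gpc1 had 36.9 ± 0.728 CPM per kilobase. Ugdh, which makes UDP-glucuronic acid, had 34.6 ± 1.6 CPM per kilobase, a range that just overlapped that of Gpc1. The polymerase subunit Ext1 had 12 ± 1.08 CPM per kilobase, next to Glce at 12.9 ± 0.496, and the ranges of that pair overlapped. Sdc4 was the lowest of the syndecans with 1.61 ± 0.326 CPM per kilobase, and the ranges of Xylt1 and Hs6st3, at the bottom of the order, overlapped at 0.313 ± 0.0781 and 0.274 ± 0.0256 CPM per kilobase. The other 12 members, Hspg2, Sulf1 and Ndst1 among them, have no level per length here.

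**Figure D1:**
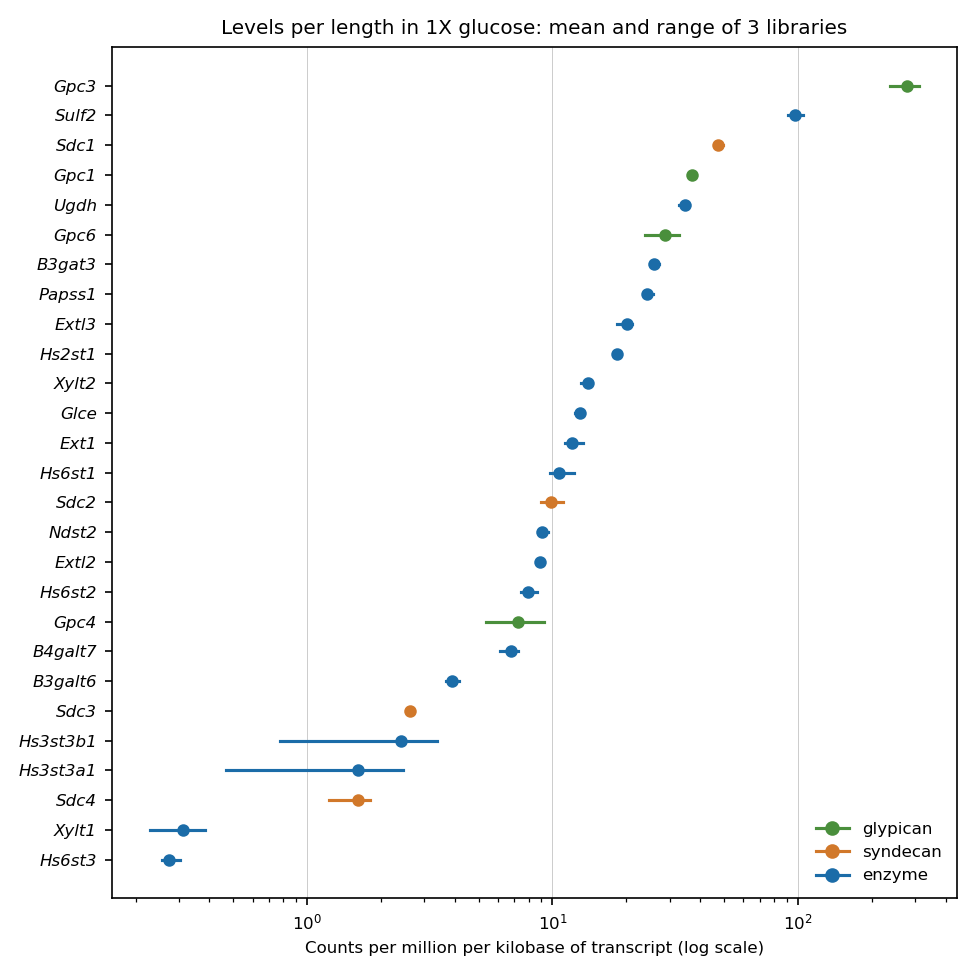
Levels of 27 members in 1X glucose, in CPM per kilobase of transcript on a log axis. Points are means and lines the range of 3 libraries, coloured for glypicans, syndecans and enzymes. Gpc3 lies at 279 and Hs6st3 at 0.274 CPM per kilobase.

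The main question was how 2-DG, and the amount of glucose itself, moved these genes. With 2-DG, 7 members changed against 1X glucose. The 6-O-sulfotransferase Hs6st1, the sulfatase Sulf1, the syndecan Sdc4 and the sulfate donor enzyme Papss1 rose by 1.27-fold to 1.87-fold. The glypican Gpc1, the syndecan Sdc1 and the precursor enzyme Ugdh were 1.16-fold to 1.35-fold lower. These are 10.8% of the 37 members higher and 8.11% lower at an adjusted p under 0.05 (edgeR quasi-likelihood test, Benjamini-Hochberg). Of all 16966 genes tested, 9.12% were called higher and 8.51% lower in this comparison, so the share of members called lay close to that of all genes. The median log2 fold change was 0.05 over the members and 0.0023 over all genes. By the 3 libraries of each group, 9 members lay wholly above and 4 wholly below 1X glucose, 24.3% and 10.8%, against 18.3% and 17.2% of all genes.

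With the passage as a block in the model, 12 of the 37 members were called higher and 7 lower, 19 in all. Of all genes, 21.1% were called higher and 20.2% lower. The members' share was thus above that of all genes for higher calls and close to it for lower calls. That difference between shares was not tested. All 7 members called without the block were among these 19. The median standard error of the members' log2 fold changes was 0.111 without the block and 0.058 with it, and it was smaller with the block for 36 of 37 members. For 2-DG against 1X glucose, block adjusted p-values of members are given below where they change a call. Log2 fold changes of members for 2-DG printed beside a block adjusted p come from the fit without the block.

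**Figure D2:**
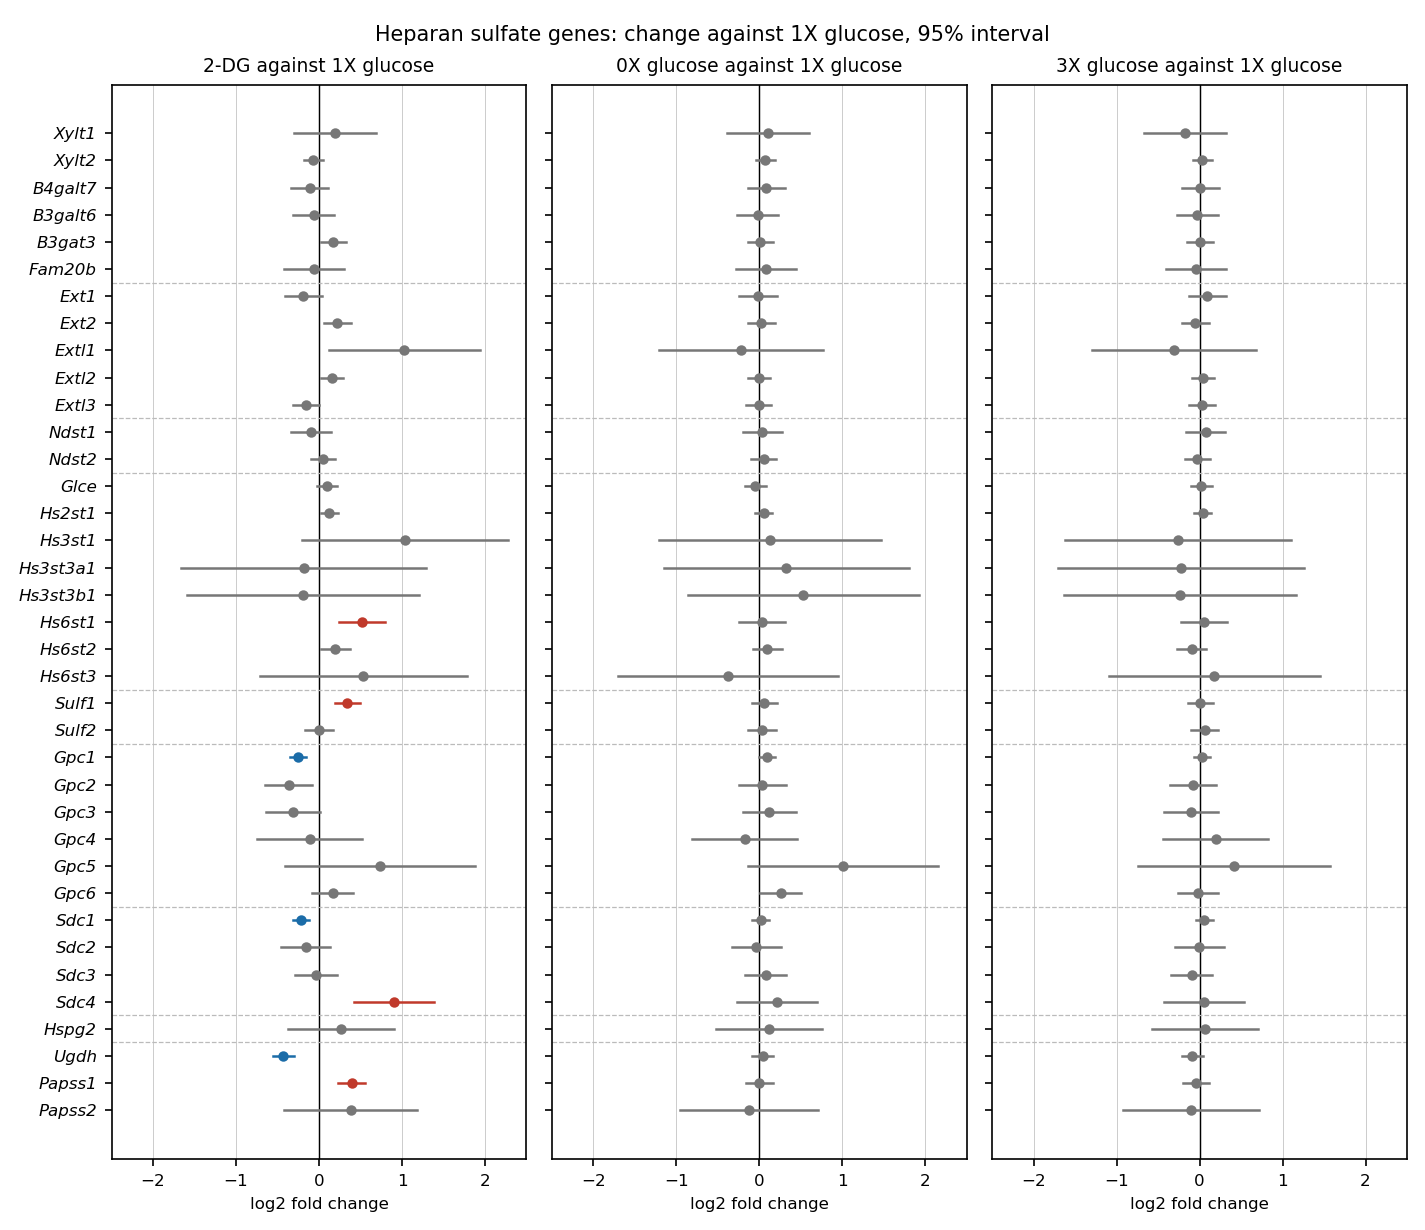
Log2 fold changes of the 37 tested members against 1X glucose, with 95% intervals, for 2-DG, 0X and 3X glucose. Dashed lines separate the roles, from the linker enzymes at the top to the precursor enzymes at the bottom, and red and blue mark members called higher and lower by edgeR. In the 2-DG panel 4 members are red and 3 blue, and the other panels hold only grey points.

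The 7 called genes lie apart in the genome (GRCm38, RefSeq): Hs6st1 at chr1:36068400-36106446, Sulf1 at chr1:12692197-12861192, Gpc1 at chr1:92831645-92860211, Sdc4 at chr2:164424247-164443188, Papss1 at chr3:131564764-131643671, Ugdh at chr5:65413207-65435842 and Sdc1 at chr12:8771396-8793716. RefSeq promoters, from 250 bases before to 50 after a start, were at hand for 30 of the 39 members, and for 5 of these 7. The 120 bases just before the promoter's start are shown for those 5, 5′ to 3′ on the strand of the gene. Genes moved up and down by 2-DG can thus be read side by side. For Papss1 the stretch ends at chr3:131564767, just inside the gene's coordinates given above. Capitals mark GC boxes (GGGCGG on either strand), a motif searched after the values were known.

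Hs6st1, chr1:36068280-36068399, plus strand, higher with 2-DG: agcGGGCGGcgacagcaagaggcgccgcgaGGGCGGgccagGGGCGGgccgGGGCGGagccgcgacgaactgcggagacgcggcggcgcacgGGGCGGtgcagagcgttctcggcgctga
Sdc4, chr2:164443189-164443308, minus strand, higher with 2-DG: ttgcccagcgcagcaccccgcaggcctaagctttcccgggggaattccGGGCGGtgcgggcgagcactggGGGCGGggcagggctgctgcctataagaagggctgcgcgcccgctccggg
Papss1, chr3:131564648-131564767, plus strand, higher with 2-DG: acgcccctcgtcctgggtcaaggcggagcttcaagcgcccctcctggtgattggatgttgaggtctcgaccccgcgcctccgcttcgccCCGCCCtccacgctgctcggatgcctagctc
Ugdh, chr5:65435843-65435962, minus strand, lower with 2-DG: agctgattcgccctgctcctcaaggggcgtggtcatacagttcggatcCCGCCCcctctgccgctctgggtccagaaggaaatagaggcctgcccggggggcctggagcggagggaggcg
Sdc1, chr12:8771276-8771395, plus strand, lower with 2-DG: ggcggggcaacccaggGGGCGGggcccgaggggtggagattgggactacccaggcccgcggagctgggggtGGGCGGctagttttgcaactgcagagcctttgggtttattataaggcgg

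The stretch of Hs6st1 held 5 GC boxes, those of Sdc4 and Sdc1 held 2 each, and those of Ugdh and Papss1 held 1 each, so both directions of change are found with a GC box. The GC content of these 5 stretches ran from 66.7% for Sdc1 to 80% for Hs6st1. Papss1 has a second promoter in the table, whose stretch at chr3:131565912-131566031 held 0 GC boxes at a GC content of 44.2% and is not printed. A GC box occurred in the 300 bases of 22 of the 30 members (73.3%) and of 38.2% of all 27025 genes with a promoter. The latter were counted whether or not they passed the filter on low counts, which most members did. No share of the tested genes alone was computed. The E-box CACGTG occurred in Ext2, Extl2 and Hs3st3a1, 10% of the members against 8.09% of all genes, and in none of the 5 called genes with a promoter. TGACGTGG (0.714% of all genes), TGATGNAAT (1.08%) and CTTTGAT (4.29%), each searched on both strands, occurred in none of the 30 members with a promoter. These are matches of letters in a window and nothing more.

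The precursor enzymes moved in opposite directions with 2-DG. Ugdh oxidises UDP-glucose to UDP-glucuronic acid, a building block of every heparan and chondroitin sulfate chain. It read 91.9, 88.8 and 83.8 CPM in 1X glucose and 67.6, 63.3 and 65.7 CPM with 2-DG. All 3 libraries with 2-DG lay below all 9 others, and the groups did not overlap. Its log2 fold change was -0.43 ± 0.058 (SE), a level 1.35-fold lower, with an adjusted p of 0.00108 (edgeR). Papss1 makes PAPS, the sulfate donor of all the sulfotransferases. It read 66.9, 61.2 and 61.3 CPM in 1X glucose and 91.6, 82.3 and 75.3 CPM with 2-DG. Again the 2-DG libraries stood apart, this time above the other 9. The rise was 1.32-fold, 0.40 ± 0.073 (SE) on the log2 scale, with an adjusted p of 0.00507 (edgeR). Papss2, the second PAPS synthase, stayed at 0.209 to 0.654 CPM in all libraries and was not called.

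The 6 enzymes of the linker gave no call with 2-DG, and their log2 fold changes lay between -0.11 and 0.19 with a median of -0.06. Xylt1, which with Xylt2 adds the first xylose, read 2.06, 2.95 and 3.46 CPM in 1X glucose and 2.43, 3.49 and 3.76 CPM with 2-DG. Its values were higher with 2-DG in each of the 3 passages while the groups overlapped (log2 fold change 0.19, 95% interval -0.30 to 0.69). B3gat3, which adds the glucuronic acid that completes the linker, read 40.2, 43.4 and 40.7 CPM against 49.5, 47.8 and 42.9 CPM with 2-DG. It was called only with the passage block (log2 fold change 0.17, adjusted p = 0.0317, against 0.11 without, edgeR). Xylt2, B4galt7, B3galt6 and the xylose kinase Fam20b were called in neither fit.

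Among the 5 chain polymerases none was called by edgeR over the 4 groups without the block, and the members of the family differed in sign. Ext1 and Ext2 form the copolymerase that extends the chain, Extl3 starts it, and Extl2 can end it early. Ext2 read 60.8, 68.5 and 67.3 CPM in 1X glucose and 74.2, 80.7 and 74.5 CPM with 2-DG. The groups did not overlap, and its log2 fold change of 0.22 had an adjusted p of 0.0609 without and 0.00143 with the block (edgeR). DESeq2 also called it. Ext1 read 101.6, 85.8 and 89.5 CPM against 78.3, 73.7 and 90.9 CPM with 2-DG. It was lower in 2 of 3 passages and called in neither fit (log2 fold change -0.19, 95% interval -0.41 to 0.03). Extl3 was lower in all 3 passages and called with the block alone (log2 fold change -0.15, block adjusted p = 0.00562, edgeR). Extl2 was also called with the block alone, in the other direction (0.16, block adjusted p = 0.026, edgeR). Extl1 was a gene of few reads, with 19, 12 and 16 counts in 1X glucose and 27, 28 and 25 with 2-DG. Its log2 fold change of 1.03 had a 95% interval from 0.12 to 1.94 and was called with the block (adjusted p = 0.0354, edgeR) and in the fit of only the 2 groups compared.

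N-sulfation starts the modification of the chain, and neither tested enzyme of it was called with 2-DG in either fit. Ndst1, the main N-deacetylase-N-sulfotransferase of the early embryo, read 89.2, 109.8 and 115.7 CPM in 1X glucose and 90.4, 103.6 and 100.6 CPM with 2-DG. The groups overlapped, and the 95% interval of its log2 fold change ran from -0.33 to 0.15. For Ndst2 the interval ran from -0.10 to 0.20.

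Of the 8 genes for the epimerase and the O-sulfotransferases, Hs6st1 alone was called. Hs6st1 adds sulfate to position 6 of glucosamine, a mark that FGF signalling needs. It read 36.3, 45.5 and 36.8 CPM in 1X glucose and 57.9, 61.1 and 51.2 CPM with 2-DG. The lowest 2-DG library lay above the highest of the 9 others, which read 36.3 to 47.3 CPM. The rise was 1.44-fold, 0.52 ± 0.13 (SE) on the log2 scale, with an adjusted p of 0.0172 (edgeR). Leaving out 1X glucose of passage 13 or 16, or 2-DG of passage 15, ended that call, at log2 fold changes of 0.46 to 0.47 and adjusted p of 0.054 to 0.063 (edgeR). Its sister Hs6st2 read 32.3, 37.6 and 33.4 CPM against 42.6, 38.8 and 36.9 CPM, overlapping groups, and was called with the block alone (log2 fold change 0.19, block adjusted p = 0.0262, edgeR). Hs6st3 had 17 to 24 counts in 1X glucose and 17 to 35 with 2-DG, and was called in neither fit. Hs2st1, the 2-O-sulfotransferase, was 1.09-fold higher in non-overlapping groups and called with the block alone (adjusted p = 0.00533, edgeR). Glce, the epimerase that turns glucuronic into iduronic acid, was called in neither fit. Hs3st1, with the largest estimate of the group (log2 fold change 1.04, 95% interval -0.20 to 2.28), had 21, 2 and 8 counts in 1X glucose and 23, 17 and 12 with 2-DG. It was called in neither fit, but was called without 1X glucose of passage 13 (log2 fold change 2.02, adjusted p = 0.0383, edgeR). The pair Hs3st3a1 and Hs3st3b1 gave log2 fold changes of -0.18 (95% interval -1.66 to 1.29) and -0.19 (-1.59 to 1.21).

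Of the extracellular sulfatases, which trim 6-O-sulfate from finished chains, Sulf1 rose and Sulf2 did not pass the test. Sulf1 read 197.1, 217.3 and 190.8 CPM in 1X glucose and 252.6, 263 and 252.1 CPM with 2-DG. Every 2-DG library lay above the 9 others, whose highest value was 228 CPM. The rise was 1.27-fold, 0.34 ± 0.068 (SE) on the log2 scale, with an adjusted p of 0.00741 (edgeR). The gene has 8 transcripts, and its most abundant one, with 36.2% of its counts, gave 0.56 but no call (adjusted p = 0.539, edgeR). Sulf2 read 364.4, 381.6 and 418.3 CPM against 346.8, 395.8 and 420.8 CPM with 2-DG, with a log2 fold change near 0 (95% interval -0.17 to 0.16). Both an enzyme that adds 6-O-sulfate and one that removes it had higher RNA levels with 2-DG.

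Of the 6 glypicans, 4 had lower estimates with 2-DG and Gpc1 alone was called, and the median over the family was -0.19. Glypicans are heparan sulfate proteins held at the membrane by a lipid anchor. Gpc1 read 155.2, 150.5 and 156.2 CPM in 1X glucose and 129.3, 133.5 and 123.5 CPM with 2-DG. The 2-DG libraries lay below the 9 others, which read 150.5 to 168.9 CPM, and the level was 1.2-fold lower (log2 fold change -0.26 ± 0.043 SE, adjusted p = 0.00316, edgeR). Gpc3, the highest per length of the 27 members with such a level, read 526, 688 and 639.6 CPM in 1X glucose and 417.6, 548.8 and 525.8 CPM with 2-DG. It was lower in each of the 3 passages, but its libraries of passage 13 lay so far below the others that the groups overlapped. The log2 fold change of -0.31 had an adjusted p of 0.172 without the block and 3.11e-05 with it (edgeR). Gpc2, known from developing neurons, read 68.6, 82.3 and 81.8 CPM against 58.3, 62.3 and 60.4 CPM with 2-DG. Those groups did not overlap, and its log2 fold change of -0.36 was called with the block (adjusted p = 0.00153, against 0.078 without, edgeR), by DESeq2, and in the fit of only the 2 groups compared.

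Gpc6 followed Gpc3 and Gpc1 in level per length among the glypicans with such a level, which leaves out Gpc2 and Gpc5. Gpc6 was higher in 2 of 3 passages. It read 82.7, 104.9 and 113.9 CPM in 1X glucose and 111.3, 114.1 and 112.2 CPM with 2-DG, and was called with the block alone (log2 fold change 0.16, block adjusted p = 0.0463, edgeR). Gpc4 read 24.6, 14.3 and 18.6 CPM against 17.1, 15.7 and 20.3 CPM and was called in neither fit. Gpc5 had the largest estimate of the family (0.74, 95% interval -0.41 to 1.88), on 12, 41 and 30 counts in 1X glucose and 37, 39 and 43 with 2-DG. Summed over the 6 glypicans, libraries held 857, 1041 and 1011 CPM in 1X glucose and 735, 875 and 843 CPM with 2-DG. The sum was lower in every passage and was not tested, and Gpc3 made up most of it.

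The syndecans, transmembrane heparan sulfate proteins, held the largest rise among the 7 called members, and a fall. Sdc4, which works with integrins in focal adhesions, read 4.37, 3.03 and 4.45 CPM in 1X glucose and 9.4, 6.54 and 6.29 CPM with 2-DG. The 2-DG libraries lay above the 9 others, the highest of which read 5.09 CPM, and the library of passage 13 stood highest. The rise was 1.87-fold, 0.90 ± 0.22 (SE) on the log2 scale, with an adjusted p of 0.0172 (edgeR). The call ended without 2-DG of passage 13 (log2 fold change 0.69, adjusted p = 0.065, edgeR) and without 1X glucose of passage 15 (0.74, adjusted p = 0.0666, edgeR). Sdc1, a syndecan of epithelia, read 156.3, 144.4 and 146.7 CPM in 1X glucose and 126.2, 129.6 and 129.1 CPM with 2-DG. No library with 2-DG reached the lowest of the 9 others, at 144.4 CPM. The level was 1.16-fold lower (log2 fold change -0.22 ± 0.045 SE, adjusted p = 0.00865, edgeR), and its most abundant transcript alone gave -0.22 without a call (adjusted p = 0.387, edgeR). Sdc2 was lower in 3 of 3 passages and called with the block alone (log2 fold change -0.16, block adjusted p = 0.0492, edgeR). Sdc3 was called in neither fit. As Sdc4 is of low abundance, the syndecan sum followed Sdc1, with 213, 194 and 195 CPM in 1X glucose and 183, 178 and 177 CPM with 2-DG.

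Perlecan (Hspg2), the large heparan sulfate protein of basement membranes, read 75.9, 111.4 and 149.5 CPM in 1X glucose and 89.7, 147.4 and 167.1 CPM with 2-DG. It was higher in each passage, with groups that overlapped, and its log2 fold change of 0.26 was called with the block alone (adjusted p = 0.0105, against 0.593 without, edgeR).

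**Figure D3:**
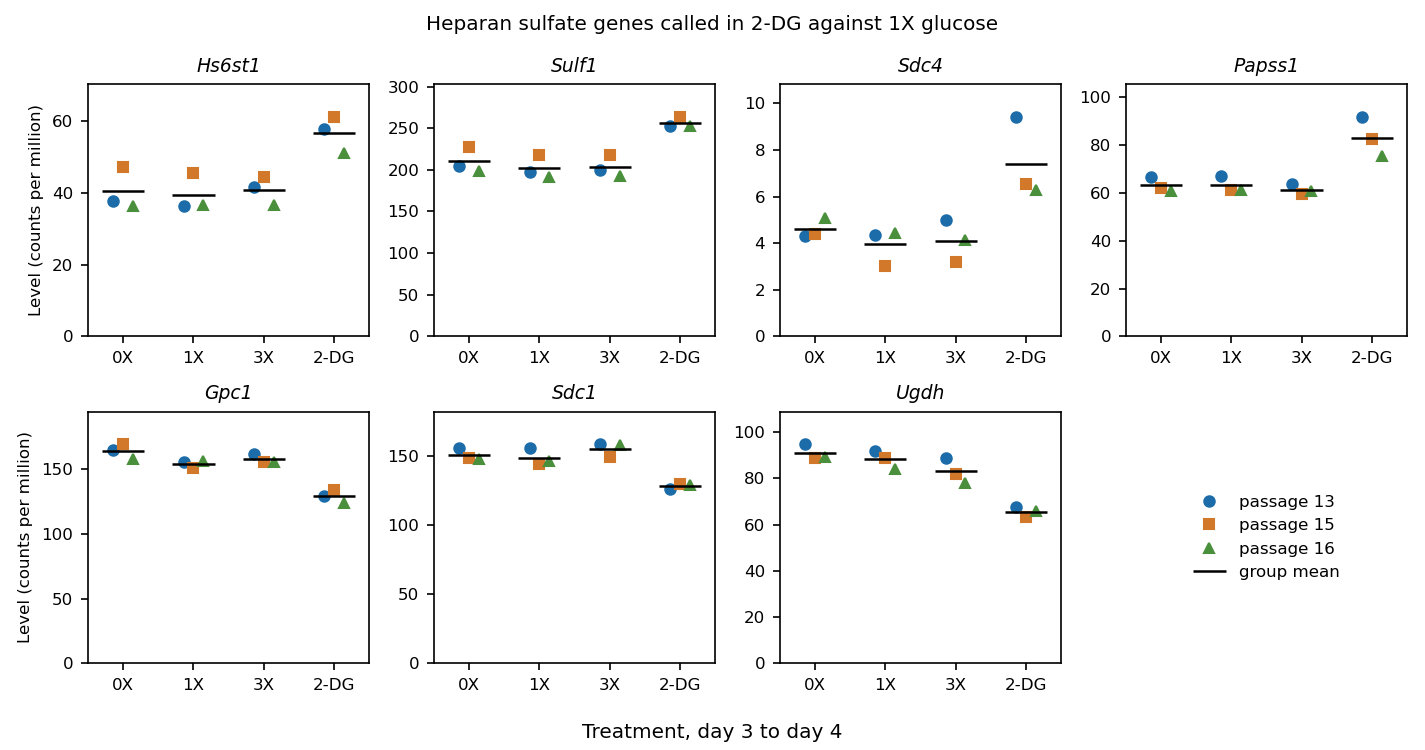
Levels of the 7 members called in 2-DG against 1X glucose, in CPM, in every library. Symbols mark the ES cell passage and horizontal lines the mean of 3 libraries. The 2-DG libraries lie above the 9 others for Hs6st1, Sulf1, Sdc4 and Papss1, and below them for Gpc1, Sdc1 and Ugdh.

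Against 0X glucose, which shares the 2-DG libraries with the comparison above, the same 7 members were called in the same directions, 10.8% higher and 8.11% lower, beside 9.86% and 9.04% of all genes. The folds were 1.4 for Hs6st1, 1.22 for Sulf1, 1.61 for Sdc4 and 1.32 for Papss1, and 1.27, 1.18 and 1.39 downward for Gpc1, Sdc1 and Ugdh. Sdc4 stood closest to the threshold (adjusted p = 0.0484, edgeR), and 9 of 12 alternative fits lost its call, among them each fit that left out a library. The call of Hs6st1 was lost in 5 of 12, and that of Sulf1 in 3 of 12, among them for both genes the fits without 2-DG of passage 15 and without 0X glucose of passage 16. With the block 9 members were higher and 8 lower, where 21.5% and 21.5% of all genes were called. Gpc3 read 577.7, 724.8 and 714.1 CPM in 0X glucose, above all its libraries with 2-DG, and its log2 fold change of -0.43 had an adjusted p of 0.0625 without and 3.67e-06 with the block (edgeR). Xylt2, Ndst1 and Glce were called with the block here and not against 1X glucose, and whether these differences differ was not tested.

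The amount of glucose alone gave no call among the members. In 0X against 1X glucose edgeR called 0 of 37 members, and DESeq2, which ran without the filter on low counts, called 0 members. In edgeR 1 member (Gpc6) had an unadjusted p under 0.05. Of all genes, 0.0118% were called by edgeR and 7 of 26355 by DESeq2. Gpc6 read 107.7, 125.3 and 127.8 CPM in 0X glucose, higher in each passage than in 1X glucose (log2 fold change 0.26, 95% interval 0.01 to 0.50). In 3X against 1X glucose both tools called 0 members, 0 had an unadjusted p under 0.05 in edgeR, and 0% of all genes were called by edgeR and 2 of 26355 by DESeq2. In 3X against 0X glucose both tools called 0 members, where edgeR called 0.0118% of all genes and DESeq2 22 of 13897. By edgeR 3 members lay below an unadjusted p of 0.05 (Hs6st2, Gpc6 and Ugdh). With the block, 1 member was called there, Gpc3, at a log2 fold change of -0.23 (block adjusted p = 0.0159, edgeR), beside 0.802% of all genes. Its 3X libraries read 481.6, 646.7 and 601.4 CPM, lower than 0X glucose in each passage.

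For most of the 7 members called with 2-DG without the block, the intervals in 0X against 1X glucose were narrow. Members called only with the block are not listed here. The log2 fold change of Ugdh in 0X against 1X glucose was 0.04 (95% interval -0.08 to 0.17) and that of Papss1 was -0.00074 (-0.16 to 0.16). For Sulf1 the interval ran from -0.09 to 0.21, for Gpc1 from -0.0048 to 0.19 and for Sdc1 from -0.08 to 0.12. Those of Hs6st1 (-0.24 to 0.31) and Sdc4 (-0.27 to 0.70) were wider. In 3X glucose Ugdh read 88.9, 81.9 and 78.1 CPM, a log2 fold change of -0.09 against 1X glucose (-0.22 to 0.04).

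Between the ES cell passages 20 of the 37 members differed, 54.1%, where 46.2% of all genes did (edgeR test of both passage terms, adjusted over all genes). In that test the 4 libraries of a passage, 1 per treatment, served as its repeats. Each passage is 1 replicate, so passage and experiment cannot be told apart, and the p-values do not cover repeats of a passage. The largest differences were those of the 3-O-sulfotransferases Hs3st3a1 and Hs3st3b1, which add a rare sulfate to the chain. In 1X glucose Hs3st3a1 read 1.84, 9.71 and 7.43 CPM, and in 0X glucose 2.78, 11.9 and 9.12 CPM. Passage 13 lay below the other passages in each treatment. Over all treatments its log2 fold changes of passages 15 and 16 against passage 13 were 1.82 and 1.41 (adjusted p = 0.000356, edgeR). Hs3st3b1 read 3.8, 15 and 16.7 CPM in 1X glucose and 6.06, 22.5 and 22.7 CPM in 0X glucose, with log2 fold changes of 1.52 and 1.58 (adjusted p = 0.000681, edgeR). With 2-DG the passages stood closer, at 7.76, 13 and 10.3 CPM for Hs3st3b1, and that change was not tested.

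Hspg2 was also lowest in passage 13, by 0.52 and 0.79 on the log2 scale (adjusted p = 1.69e-05, edgeR), as were Gpc3 by 0.38 and 0.31 (adjusted p = 7.03e-06, edgeR) and Fam20b by 0.42 and 0.32 (adjusted p = 0.000154, edgeR). Sdc2 was highest in passage 13, with log2 fold changes of -0.30 and -0.28 (adjusted p = 0.00106, edgeR). Gpc4 was higher in passage 13 than in the others in 0X, 1X and 3X glucose, and lay between them with 2-DG (log2 fold changes -0.68 and -0.30 over all treatments, adjusted p = 0.00854, edgeR). Marker levels moved with the passage as well. Over the 4 treatments, summed endoderm markers read 7.11 to 12.6 CPM in passage 13, 68.4 to 201 CPM in passage 15 and 26.1 to 75.5 CPM in passage 16. The sum of the neural progenitor markers was 195 to 363 CPM in passage 13, 102 to 188 in passage 15 and 83.8 to 167 in passage 16. That of the paraxial mesoderm and streak markers was 569 to 945, 1124 to 1537 and 903 to 1316 CPM. The part of these cell types in the result was not tested.

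**Figure D4:**
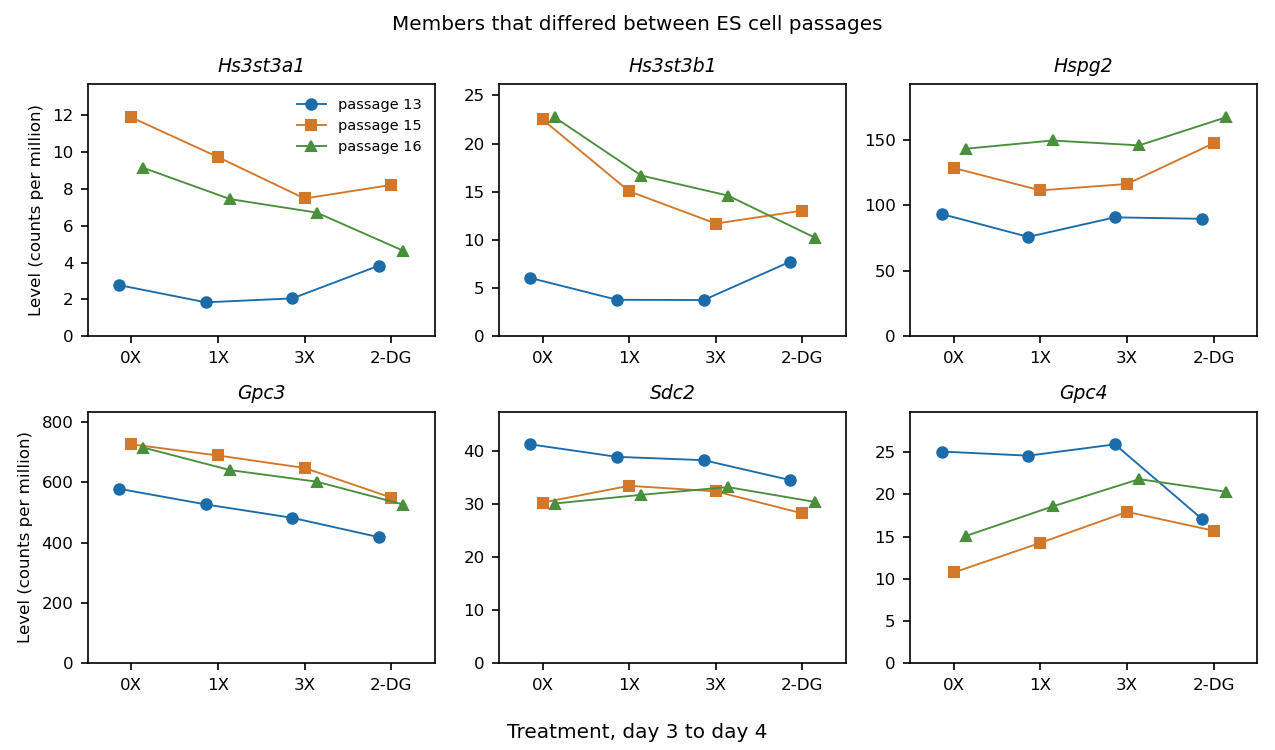
Levels of 6 members that differed between ES cell passages, in CPM, by treatment. Each line joins the 4 libraries of 1 passage. Passage 13 lies lowest in every treatment for Hs3st3a1, Hs3st3b1, Hspg2 and Gpc3 and highest for Sdc2.

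Some of these genes are neighbours or copies. Hs3st3b1 and Hs3st3a1 lie 513 kb apart on chromosome 11 and share 479 stretches of 31 bases, 12.3% of those of Hs3st3a1 and 9.81% of those of Hs3st3b1, so the authors' counting could split reads between them and their separate values are uncertain. On chromosome X, Gpc4 lies 107.5 kb from Gpc3 and 369.3 kb from Hs6st2, and the 3 did not move together, with log2 fold changes for 2-DG of -0.11, -0.31 and 0.19. Gpc5 and Gpc6 are 399.7 kb apart on chromosome 14. Other pairs of members shared at most 60 such stretches.

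Of 20 other heparan sulfate genes 17 were tested. With 2-DG 2 were higher (11.8%, close to the 9.12% of all genes) and 0 lower (against 8.51% of all genes). With the block 8 of the 17 were higher and 4 lower, where 21.1% and 20.2% of all genes were called. The 2 called without the block were Slc35b2, which carries PAPS into the Golgi (1X glucose 59.2, 61.1 and 58.6 CPM, 2-DG 73.9, 69.9 and 68.7 CPM, log2 fold change 0.25, adjusted p = 0.00492, edgeR), and Tgfbr3, a part-time proteoglycan and TGF-beta coreceptor (0.87, adjusted p = 0.0183, edgeR). The median over the 17 was 0.02. Of the chondroitin and dermatan sulfate branch, which shares the linker, 20 genes were tested. Without the block 4 were higher (20% against 9.12% of all genes) and 0 lower (against 8.51%), with a median of 0.07. With the block 7 of the 20 were higher and 2 lower, beside the same 21.1% and 20.2% of all genes. Csgalnact1, which commits the linker to chondroitin, read 0.9, 0.737 and 0.951 CPM in 1X glucose and 3.4, 2.7 and 2.61 CPM with 2-DG. Its groups did not overlap, and its log2 fold change of 1.74 ± 0.21 (SE) had an adjusted p of 0.000603 (edgeR). The other 3 called without the block were Csgalnact2 (0.44), Chpf2 (0.32) and Dsel (0.29). In 0X and 3X against 1X glucose 0 genes of these 2 lists were called by edgeR, with 1 and 0 at an unadjusted p under 0.05.

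Cell type markers and stress genes moved in the same libraries. Beside the counts below, 9.12% of all genes were called higher and 8.51% lower with 2-DG against 1X glucose, or 21.1% and 20.2% with the block. All 8 genes of the unfolded protein response were higher with 2-DG, and their sum was 1525 to 1629 CPM in 1X glucose and 2914 to 3625 CPM with 2-DG. Hspa5, the chaperone BiP, read 596, 660 and 619 CPM in 1X glucose and 1510, 1356 and 1204 CPM with 2-DG. The sum of 10 paraxial mesoderm and streak markers was 849 to 1426 CPM in 1X glucose and 569 to 1124 CPM with 2-DG, and 1 of them, T, was called lower, or 5 with the block. T read 322, 167 and 187 CPM in 1X glucose and 64.6, 67.1 and 96.1 CPM with 2-DG. Of these 10 markers, 8 had lower and 2 higher estimates with 2-DG. Mesp1 read 6.74, 29.4 and 24.2 CPM in 1X glucose and 18.9, 31.5 and 27 CPM with 2-DG. Meox1 read 36.3, 262 and 154 CPM against 112, 214 and 124 CPM, higher in passage 13 and lower in the other passages. The sum of 9 neural progenitor markers was 93.4 to 225 CPM in 1X glucose and 167 to 363 CPM with 2-DG, with 4 called higher and 1 lower, or 6 and 1 with the block. Endothelial and blood markers summed to 3.07 to 10.4 CPM against 1.82 to 1.99 CPM, with 1 of 5 tested called lower, or 4 with the block. Endoderm markers summed to 7.11 to 171 CPM in 1X glucose and 12.2 to 68.4 CPM with 2-DG, pluripotent cell markers to 35 to 48.5 and 53.6 to 65.9 CPM, and fibroblast markers, which feeder cells would carry, to 11.3 to 15.1 and 10.7 to 14.5 CPM, with 0 called in each of these 3 lists. With the block, 1 endoderm marker was higher and 2 lower, 3 pluripotent cell markers were higher and 0 lower, and 1 fibroblast marker was higher and 2 lower, of 5 tested in each list. No listed marker was at 0 in all 12 libraries. The part of these shifts in the changes of the heparan sulfate genes was not tested.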

How the data were processed

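PolyA RNA of 12 libraries was analysed, 3 in each of 4 treatments, grouped by the labels. The authors deposited 1 file per library with estimated counts of 120312 RefSeq transcripts, whole numbers apportioned by StringTie, so reads shared between transcripts or near-identical genes are split by estimate. The submitters' processing notes name Trim Galore, HISAT2, SAMtools, Picard, StringTie, DESeq2 and mm10, and versions are not given in the sources used here. Removal of duplicates by Picard can lower the counts of abundant genes. The authors' 3 comparison tables (log2 fold changes and p-values of transcripts) were not used. Transcripts were named by the RefSeq table of GRCm38.p6, and counts were summed per gene.

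A quasi-likelihood model over the 4 groups, without a passage term, was run with edgeR 4.0.16 under R 4.3.3 (filterByExpr, TMM, glmQLFTest). Tests were two-sided, adjusted by Benjamini-Hochberg over 16966 genes, with a threshold of 0.05. Intervals are 95%, from the standard error and the t quantile. CPM are TMM-scaled. Depth, 31902471 to 45956080 counts, limits genes of few counts.

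Passages pair the libraries per the labels. Deviations from group means correlated at 0.0963 to 0.623 in 18 pairs of 1 passage and at -0.44 to 0.191 in 36 others. Replicates are passages of a single line, so p-values of fits without the block measure the spread between passages. Those with the block, and those of the test between passages, measure the spread left once passage and treatment means are taken out. At most 9.67% of transcript values with a mean of at least 10 were identical between any pair of libraries. An exact permutation test of 3 against 3 cannot go below p = 0.1, so none is given.

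Alternatives were DESeq2 1.42.0, median-of-ratios factors, no filter, the passage block, each gene's most abundant transcript, only the 2 groups compared, and each library left out. Only the edgeR fit without the passage block was tried on simulated data, for 2-DG against 1X glucose. DESeq2, the passage block and the test between passages were not tried in that way. Every member was accounted for by role, with values per library for those called and for the largest log2 fold change with 2-DG in each role. Members, lists and tests were chosen with earlier results of these data known. A list of enzymes that break the chain down is not reported here.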

Additional observations from a re-analysis of the deposited data

How the results depend on the processing

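Over all alternatives tried, no log2 fold change of a called member changed sign. The count of members called in 2-DG against 1X glucose was 7. It was 19 with the replicate block (passage) and 3 with the most abundant transcript alone (Gpc1, Ugdh and Papss1). DESeq2 and the fit of only the 2 groups compared gave 9 each. Median-of-ratios factors and no filter gave 7 each, and fits without 1 library gave 6 to 7. Of all genes tested, 2990 of 16966 were called in the main fit, 7001 of 16966 with the block and 3597 of 16385 with DESeq2. Median-of-ratios factors called 3011 of 16966, no filter 2376 of 26382, and only the 2 groups compared 1896 of 16543. Fits without 1 library called 1734 to 2352 of 17213 to 17290 genes. Against 0X glucose the count was 7, with 17 under the block, 2 with the most abundant transcript alone (Gpc1 and Ugdh), 9 with DESeq2, 6 with no filter or only the 2 groups, and 4 to 7 without 1 library. It was 4 without 2-DG of passage 15 and 4 without 0X glucose of passage 16. Of all genes, 3207 of 16966 were called there in the main fit, 7305 of 16966 with the block and 3737 of 16883 with DESeq2. The most abundant transcript alone called 775 of 16819, no filter 2583 of 26382, and only the 2 groups compared 2348 of 16229. Fits without 1 library called 2051 to 2619 genes. In 3X against 0X glucose the count went from 0 to 1 with the block. For 0X and 3X against 1X glucose it was 0 in each alternative run. Between passages 20 members were called, and 6 with the most abundant transcript alone. Fewer genes were called over the whole table there too, 653 against 2990 in 2-DG against 1X glucose and 1879 against 7840 between passages. The cause was not tested. Hs6st1 and Sdc4 have 1 transcript each, and lost their calls there at adjusted p of 0.073 and 0.0722 (edgeR). Ugdh and Gpc1 kept their calls in all 12 alternatives of both 2-DG comparisons, and Papss1 in all 12 against 1X glucose. Over the 2217 alternative values of single members, 28 calls were lost and 32 gained, 23 of the gains with the block. Depth limits Ndst3, Extl1, Hs3st1, Hs6st3, Gpc5 and Papss2, each with at most 58 counts in a library.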
